A study of Arabidopsis thaliana with 9 samples.

Results

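A set of 66 Arabidopsis thaliana genes had higher transcript levels in roots from both flight tubes of a jet flight than in roots fixed on the ground. Each is measured by a probe set that names 1 gene, and 16722 such probe sets were available. A gene entered the set when the mean of the first-actuated tube and the mean of the last-actuated tube each exceeded the ground mean by at least 0.8 on the log2 scale, with all 6 flight arrays above all 3 ground arrays. In all, 75 probe sets met these conditions, or 0.449% of the total, and 9 of these were set aside by locus, most of them heat shock or protein quality control genes. The mirrored conditions, lower in both flight tubes, were met by 72 probe sets, or 0.431%. Because the differences from the ground chose the members, they are described below and carry no test. The order of the flight tubes between themselves was not used in the choice and was tested.

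All seedlings were of the Wassilewskija (WS) background and carried a GFP fusion of the 14-3-3κ protein, overexpressed from the CaMV 35S promoter, a viral promoter active in most plant cells. No plants without the transgene were compared, so whatever the fusion protein does was present in all 3 groups. The seedlings were 10 days old and had grown in continuous light before they were moved into Kennedy Space Center Fixation Tubes, sealed cylinders that release RNAlater when actuated. Ground Control roots came from a tube held by a person on the ground. First-Actuated roots were fixed in flight right after the microgravity phase. Last-Actuated roots were fixed after about 1.5 min of level flight. Both flight tubes travelled in pockets of a flight suit through a climb at 4 g for roughly 30 s, about 10 s of microgravity and a short pull-up. Each group consists of 3 replicates taken from the roots of 1 tube. The p-values therefore measure the spread within a tube, and tube and condition cannot be told apart.

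Plant cells meet stress that unfolds proteins by making chaperones. Small heat shock proteins hold unfolded proteins in solution, the HSP70 and HSP90 machines refold them with the help of DnaJ proteins and other co-chaperones, and proteins that cannot be rescued are marked with ubiquitin and degraded. Heat shock transcription factors drive many of these genes, and several of the same genes also answer oxidative, osmotic and chemical stress. Of 21 heat shock factor genes listed for comparison, 0 had a single-gene probe set, so the regulators were not analysed here.

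The ground arrays were the least alike. Pearson correlations across the probe sets, which are not independent replicates, were 0.975 to 0.984 within the ground tube, 0.990 to 0.991 within the first-actuated and 0.984 to 0.989 within the last-actuated tube. The root markers PYK10, a beta-glucosidase of root endoplasmic reticulum bodies, and EXPA7, a root hair expansin, were the 2 of 11 listed root markers measured. PYK10 read 11.39 to 11.73 on the ground, 11.27 to 11.33 in first-actuated and 11.09 to 11.20 in last-actuated roots, with no overlap between tubes. EXPA7 read 4.65 to 5.04 on the ground, 3.86 to 4.49 in first-actuated and 4.58 to 4.74 in last-actuated roots. Of 7 shoot markers 3 were measured. Over the 9 arrays FAMA, a guard cell regulator, read 0.96 to 1.40 and LHCB4.1 4.71 to 4.92. RCA read 6.49 to 6.86 on the ground, 6.56 to 6.74 in first-actuated and 6.38 to 6.48 in last-actuated roots. The 2 root markers summed to 16.0 to 16.8 on the ground, 15.2 to 15.8 in first-actuated and 15.7 to 15.9 in last-actuated roots, and the 3 shoot markers to 12.3 to 13.1, 12.3 to 12.8 and 12.4 to 12.7. The 63 probe sets for chloroplast-encoded transcripts were higher on ground replicates 1 and 3 than on the flight arrays. With each probe set centred on its 9-array mean, their median was 1.22 for ground replicate 1, -0.0050 for replicate 2 and 0.82 for replicate 3, beside a span from -0.27 to -0.15 over the 3 first-actuated arrays and from -0.48 to -0.43 over the 3 last-actuated ones. The part of this shift in the results below was not tested.

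Among the members the first-actuated level exceeded the ground level by 0.81 to 4.14 on the log2 scale, with a median of 1.51, and the last-actuated level by 0.81 to 2.83, with a median of 0.99. Over all probe sets these medians were 0.0095 and 0.026. In first-actuated roots 57 members were at least 1 above the ground and 15 at least 2 above it. In last-actuated roots these counts were 31 and 1. In whole roots, a change in the number of cells of a type and a change in RNA per cell cannot be told apart. The narrowest gap between the lowest flight array and the highest ground array was 0.073, for AT5G57910, and the widest was 2.42, for AT1G44414.

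**Figure D1:**
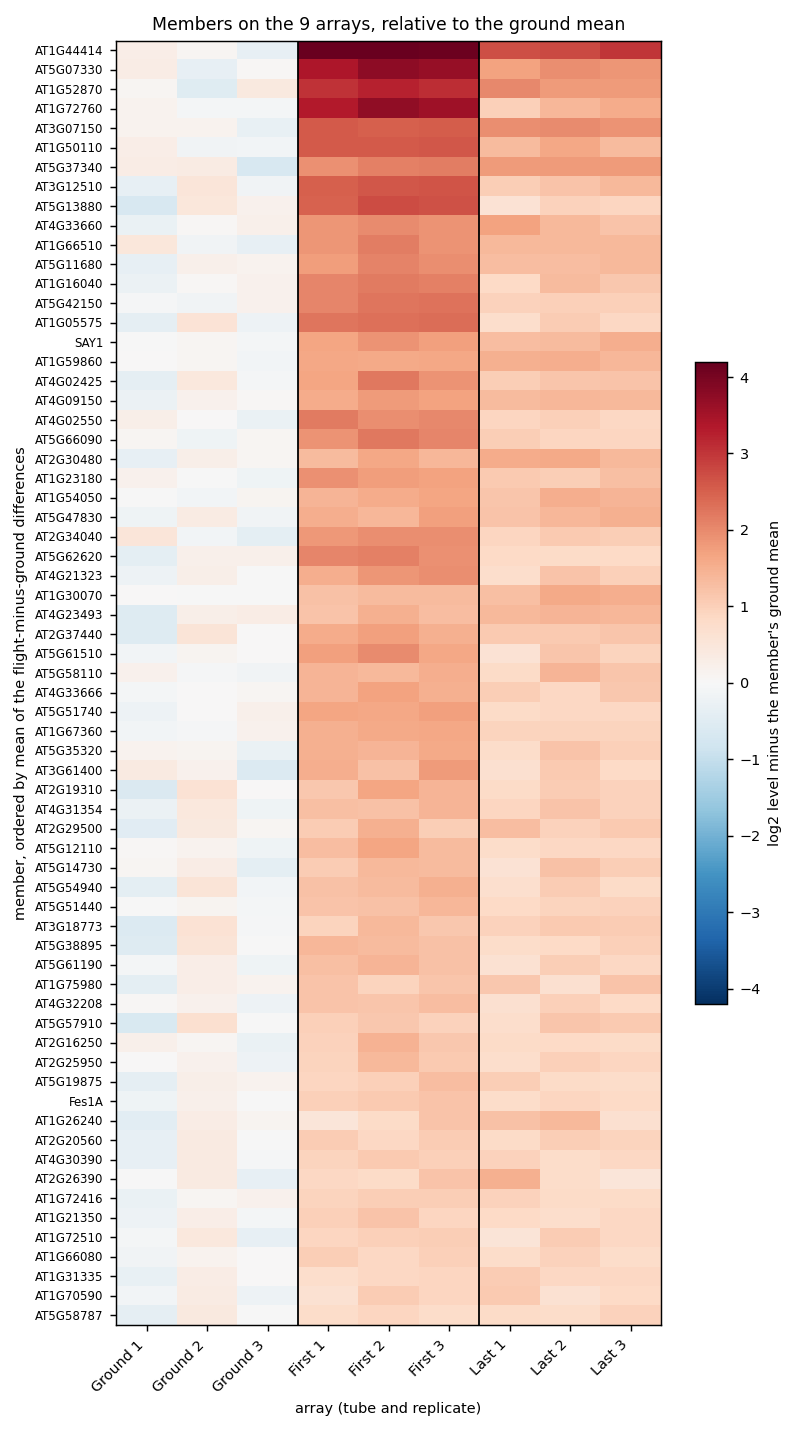
Heat map of the 66 members (rows, ordered by the mean of their flight-minus-ground differences) on the 9 arrays (columns, 3 per tube). Colour gives the log2 level minus the member's mean on the 3 ground arrays. All 6 flight columns are above the ground columns by the choice of members, and most rows are darker in the first-actuated than in the last-actuated columns.

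The largest differences from the ground belonged to AT1G44414, a gene for which no role is given here. Its log2 levels were 3.95, 3.77 and 3.33 on the ground arrays, 7.82, 7.85 and 7.79 on the first-actuated arrays and 6.38, 6.47 and 6.68 on the last-actuated arrays. The 3 tubes did not overlap, and the last-actuated roots lay between the others, 2.83 above the ground mean against 4.14 in first-actuated roots. AT5G07330, also with no role given here, read 4.54, 3.90 and 4.27 on the ground, 7.62, 7.99 and 7.90 in first-actuated and 5.93, 6.20 and 6.10 in last-actuated roots. AT1G52870, which encodes a protein of the Mpv17/PMP22 family of organelle membrane proteins, read 3.59, 3.01 and 3.91 on the ground, 6.55, 6.73 and 6.59 in first-actuated roots and 5.51, 5.30 and 5.28 in last-actuated roots. In these genes, too, every last-actuated array stood between the ground and the first-actuated arrays.

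AT1G72760, which encodes a protein kinase, had the largest difference between the flight tubes. It read 1.71, 1.48 and 1.48 on the ground, 4.88, 5.28 and 5.10 in first-actuated and 2.55, 2.94 and 3.11 in last-actuated roots. It was the 1 member with a ground mean under the median probe set mean of 2.15, and with no detection calls the size of its difference from the ground is uncertain. BCAT6 (AT1G50110), a branched-chain amino acid aminotransferase, read 4.66, 4.21 and 4.24 on the ground, 6.94, 6.94 and 6.98 in first-actuated and 5.70, 5.99 and 5.69 in last-actuated roots. AT3G12510, annotated as a MADS-box family protein, read 6.15, 7.02 and 6.35, then 9.02, 9.12 and 9.14, then 7.55, 7.71 and 7.88 in the same order of tubes. AT3G07150 kept more of its difference, with 4.09, 4.08 and 3.63 on the ground, 6.51, 6.43 and 6.46 in first-actuated and 5.87, 5.91 and 5.82 in last-actuated roots.

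The comparison between the flight tubes asked how the members stood about 1.5 min of level flight later. In last-actuated against first-actuated roots, 22 of the 66 members fell and 0 rose (limma, Benjamini-Hochberg adjusted p under 0.05), where 1.25% of all 16722 probe sets fell and 0.969% rose. The shares over all probe sets here and below are not matched for level, and the median ground mean was 5.39 for members against 2.16 over all. With only probe sets of a mean above the median tested, 24 members fell and 0 rose, and 279 probe sets fell and 213 rose in all. At an unadjusted p under 0.05, 35 members were lower and 0 were higher, and the share of all probe sets at that threshold is not given here. The members' median difference was -0.41, beside 0.011 over all probe sets. In 60 of 66 members the last-actuated mean was the lower one, against 47.2% of all probe sets. On the arrays, all 3 first-actuated values lay above all 3 last-actuated values for 43 members, against 9.12% of all probe sets, and the opposite was the case for 0 members, against 9.01%. The last-actuated difference from the ground amounted to 31.4% to 130% of the first-actuated one on the log2 scale, with a median of 71.2%. Genes back near the ground level in last-actuated roots could not be members. The low end and the median of this share are therefore partly set by the rule.

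The count of 22 rests on all flight arrays. It was 12, 11 and 9 without first-actuated replicates 1, 2 and 3, and 13, 14 and 13 without last-actuated replicates 1, 2 and 3. Without ground replicate 1, 2 or 3, which enter through the shared estimate of spread alone, it was 23, 21 and 19. The count of members with a negative difference stayed between 57 and 61 over these 9 fits. In 9 members the fall passed the same threshold in all 20 alternative fits. They were AT1G44414, AT5G07330, AT1G72760, BCAT6, AT5G13880, AT5G42150, AT4G02550, AT5G66090 and GALT6 (AT5G62620).

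**Figure D2:**
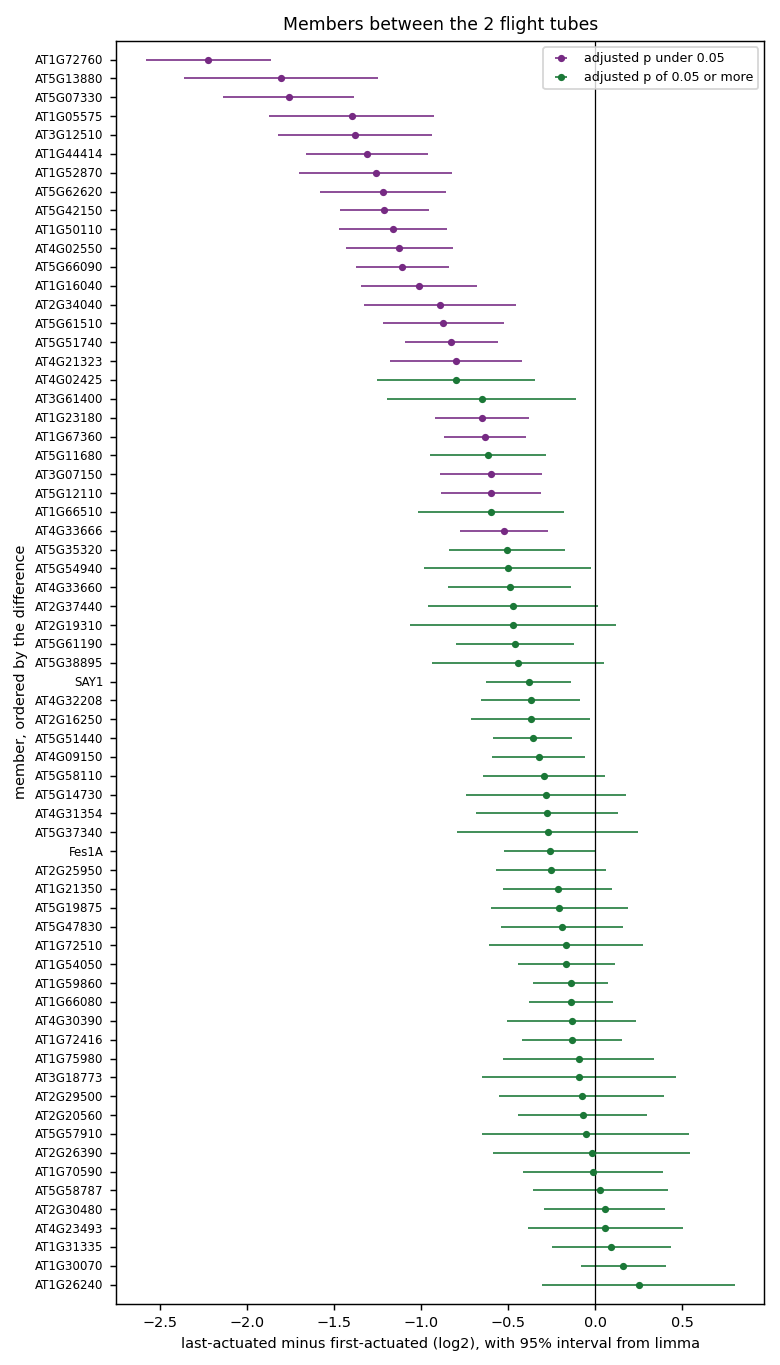
Difference between last-actuated and first-actuated means on the log2 scale (horizontal axis) for each of the 66 members (vertical axis), with 95% intervals from limma. The 22 members with an adjusted p under 0.05 (purple) lie at -0.52 or below, and the other 44 (green) spread from -0.80 to 0.25.

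AT1G72760 fell by 2.22 (SE 0.16, limma, adjusted p = 5.01e-04), or 4.67-fold. AT5G07330 fell by 1.76 (SE 0.17, adjusted p = 0.00161) and AT1G44414 by 1.31 (SE 0.16, adjusted p = 0.00422). AT5G13880, with no role given here, stood 2.63 above the ground in first-actuated roots and 0.83 above it in last-actuated roots, the smallest share kept by any member. Its last-actuated difference is close to the 0.8 that the rule requires. The falls of AT1G52870, by 1.26 (adjusted p = 0.0123), and of AT3G07150, by 0.60 (adjusted p = 0.0486), were lost in some alternative fits, where the adjusted p reached 0.0618 and 0.161. That of AT1G52870 was lost without any 1 first-actuated array and without last-actuated replicate 2 or 3. That of AT3G07150 was lost without any 1 flight array, and in the fits with a trend, over all probe sets, after another quantile normalization and with the replicate number as a block. AT3G12510 fell by 1.38 (adjusted p = 0.00845), and its call was lost without first-actuated replicate 3 (adjusted p = 0.0518).

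A group of 10 members encodes chaperones and their helpers. Grouped by protein family after the members were known, 5 encode small heat shock proteins and 5 encode co-chaperones or their partners. Their first-actuated levels were 0.97 to 1.61 above the ground and their last-actuated levels 0.83 to 1.47 above it. Limma called 0 of these 10 members between the flight tubes, in the fit of all 9 arrays and in each of 20 alternative fits. That is close to the share over all probe sets, of which 1.25% fell. At an unadjusted p under 0.05 there was 1, and the share of all probe sets at that threshold is not given here. Of the other 56 members 22 were called. Those 22 had a median first-actuated difference from the ground of 2.08, above the range of these 10. The difference between these counts was not tested, since the families were assigned with the members in view. The 10 differences ran from -0.47 to -0.071. The lowest bound of their 95% intervals was -1.06, for AT2G19310, and the highest was 0.40, for AT2G29500. The smallest fall called in other members was 0.52. A fall of that size lies inside the interval of some of the 10 genes, such as AT2G19310. It lies outside that of others, such as AT1G59860, with a lower bound of -0.36.

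The small heat shock protein gene AT1G59860, of the cytosolic class I, read 5.29, 5.35 and 5.15 on the ground, 6.90, 6.86 and 6.88 in first-actuated and 6.77, 6.80 and 6.65 in last-actuated roots. The flight tubes lay close together and far from the ground, and the difference between them was -0.14 with a 95% interval of -0.36 to 0.074. AT1G54050, of class III, read 6.01, 5.92 and 6.13, then 7.44, 7.56 and 7.68, then 7.18, 7.55 and 7.46, and its flight tubes overlapped. AT2G29500, which encodes HSP17.6B, had wide ground values of 7.26, 8.13 and 7.81, against 8.80, 9.22 and 8.78 in first-actuated and 9.04, 8.71 and 8.82 in last-actuated roots. The mitochondrial small heat shock protein gene AT5G51440 read 6.82, 6.96 and 6.78 on the ground, 8.04, 8.10 and 8.25 in first-actuated and 7.70, 7.79 and 7.82 in last-actuated roots. All its last-actuated values were below its first-actuated values, but the difference of -0.36 did not pass (adjusted p = 0.124). AT2G19310, another HSP20-type gene, was 1.41 and 0.94 above a ground level that ranged from 7.47 to 8.70.

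Fes1A, a nucleotide exchange factor that protects HSP70, read 7.59, 8.0 and 7.76 on the ground, 8.80, 8.88 and 8.97 in first-actuated and 8.57, 8.68 and 8.62 in last-actuated roots. Its difference between the flight tubes was -0.26 (95% interval -0.53 to 0.0054, adjusted p = 0.387). AT2G20560 and AT1G72416, both with a DnaJ domain, which stimulates HSP70, were 0.99 and 1.00 above the ground in first-actuated roots and 0.92 and 0.87 above it in last-actuated roots. AT5G58110, which resembles activators of the HSP90 ATPase, was 1.43 and 1.14 above the ground. HLP1 (AT1G66080), related to the Hikeshi carrier that takes HSP70 into the nucleus, read 5.82, 6.08 and 5.96 on the ground, 7.0, 6.84 and 6.94 in first-actuated and 6.72, 6.91 and 6.72 in last-actuated roots. In each of the 10 genes the mean was lower in last-actuated than in first-actuated roots, where 47.2% of all probe sets had a lower mean. In 4 of them all first-actuated values lay above all last-actuated values, against 9.12% of all probe sets.

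**Figure D3:**
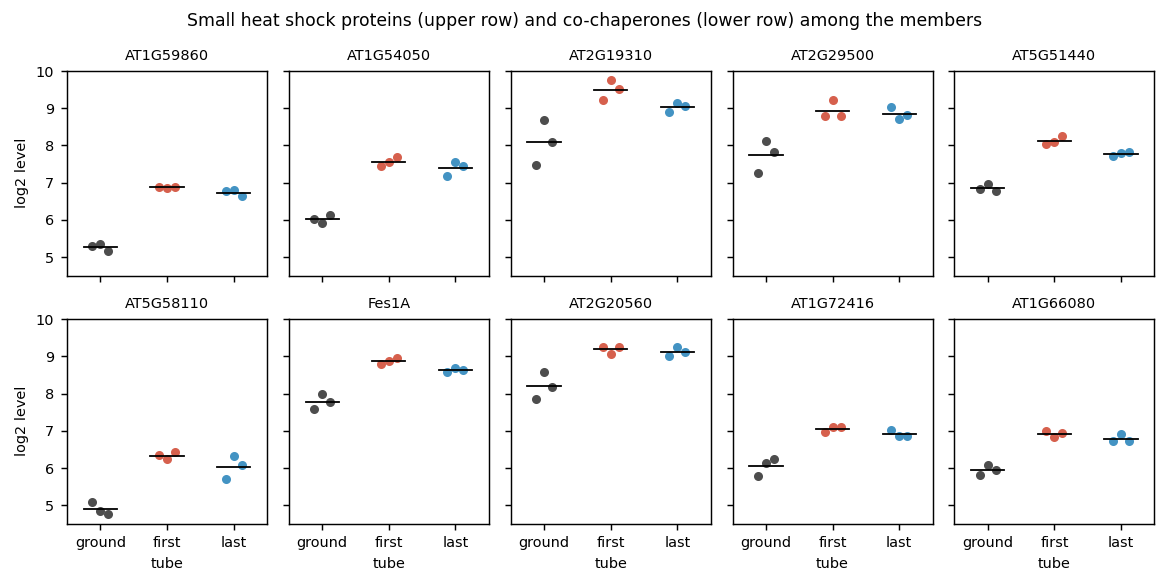
Log2 levels (vertical axis) of the 10 chaperone and co-chaperone members on the 9 arrays, by tube (horizontal axis). Points are arrays, in order of replicate number, and bars are means of 3. All flight values lie above the ground values by the choice of members. First-actuated values lie above all last-actuated values in 4 panels and overlap them in the other 6.

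Of the 27 chaperones and heat-induced genes listed from general knowledge, 6 were measured, and 0 rose and 0 fell between the flight tubes (limma, with an adjusted p of 0.124 or more). The members among them are HSP17.6B, Fes1A and AT5G51440. HSP17.8, a cytosolic small heat shock protein gene, and HOP3, which encodes a co-chaperone that bridges HSP70 and HSP90, are not members and differed by -0.082 and -0.21 between the flight tubes. HSP17.8 was 0.64 and 0.55 above the ground in first-actuated and last-actuated roots, and HOP3 was 0.91 and 0.70 above it. In both genes all flight arrays lay above all ground arrays, and a difference under 0.8 kept them out of the set. HSP15.4, also not a member, differed by 0.075 between the flight tubes. Its differences from the ground were -0.69 in first-actuated and -0.61 in last-actuated roots, with every flight array below every ground array. HSP15.4 was low, with means of 2.24, 1.55 and 1.63 in ground, first-actuated and last-actuated roots, near or under the median probe set mean of 2.15. With no detection calls, the size of its differences is uncertain. The unfolded protein response list of the endoplasmic reticulum had 4 of 13 genes measured and 0 members, and limma called 0 of the 4 between the flight tubes. The calreticulin gene CRT1B and the chaperone genes ERDJ3B and BIP1 had differences of 0.39, 0.40 and 0.57 (limma, adjusted p = 0.321, 0.402 and 0.200). In each, all last-actuated arrays lay above all first-actuated arrays, against 9.01% of all probe sets. BIP1 was low in every tube, with its highest mean, 1.68 in last-actuated roots, under the median probe set mean of 2.15. With no detection calls, the size of the BIP1 difference is uncertain. BZIP60, a transcription factor of the unfolded protein response, differed by -0.51 (limma, adjusted p = 0.405). It read 3.38 ± 0.15 (SD, n = 3) on the ground, 4.15 ± 0.49 in first-actuated and 3.64 ± 0.34 in last-actuated roots. The lists for abscisic acid, cold and drought (6 of 21 measured), low oxygen (5 of 18), touch and calcium (3 of 14), auxin (5 of 12) and mitochondrial and chemical stress (3 of 12) held 0 members. In KIN1, AT3G03270 and LBD16 of these lists, and in NDB2 below, all flight arrays still lay above all ground arrays. KIN1, AT3G03270 and LBD16 were 1.41, 1.15 and 0.53 above the ground in first-actuated and 0.75, 0.66 and 0.71 in last-actuated roots. The other measured genes of these lists had no such separation in either direction. Between the flight tubes, 2 of the low oxygen genes rose, AT4G27450 and AT5G42200 (limma). The zinc finger gene STZ, the auxin-conjugating GH3.3 and NDB2, an external NADH dehydrogenase of mitochondria, fell by 0.99, 1.04 and 0.83 (limma, adjusted p = 0.0235, 0.0485 and 0.0487). Relative to the ground, those 3 genes stood at 0.94, 1.63 and 1.49 in first-actuated roots and at -0.045, 0.59 and 0.66 in last-actuated roots.

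The 9 genes set aside give the setting for these values. They include AT1G52560 and other small heat shock protein genes, HSA32, ROF2 (AT5G48570) and the ATPase gene AT4G27680, and their first-actuated and last-actuated medians were 2.50 and 2.24 above the ground. Between the flight tubes 3 of the 9 fell and 0 rose, beside 1.25% and 0.969% of all probe sets. The median difference of the 9 was -0.13, against -0.41 for the members.

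Genes tied to protein breakdown formed another group of 8 members, of which 2 fell between the flight tubes, beside 1.25% of all probe sets. SAY1, which carries a UBX domain, a fold that docks on the segregase CDC48, read 6.00, 6.10 and 5.93 on the ground, 7.68, 7.90 and 7.73 in first-actuated and 7.31, 7.33 and 7.53 in last-actuated roots. OMA1 (AT5G51740), a metallopeptidase of the inner mitochondrial membrane, read 4.96, 5.19 and 5.40, then 6.85, 6.81 and 6.90, then 5.98, 6.06 and 6.04. It fell by 0.83 between the flight tubes (limma, adjusted p = 0.00881), a call lost without first-actuated replicate 3. The subtilase gene AT4G21323 fell by 0.80 (adjusted p = 0.0444), a call lost in 9 of the 20 alternative fits, with an adjusted p of up to 0.170. The RING finger genes AT5G38895, AT3G18773 and AT5G58787, of a class that includes many ubiquitin ligases, the F-box gene AT1G70590 and the serpin gene AT2G26390 were 0.81 to 1.31 above the ground in first-actuated roots and 0.84 to 1.05 in last-actuated roots, and limma called 0 of these 5. For PUB23, a ubiquitin ligase gene outside the set, the mean was 6.90 on the ground, 8.22 in first-actuated and 6.90 in last-actuated roots. It fell by 1.32 between the flight tubes (limma, adjusted p = 0.0486). Its ground arrays were widely spread, at 6.05, 7.46 and 7.19, so its place relative to the ground is uncertain. PUB22, also a ubiquitin ligase gene outside the set, was 0.27 and 0.15 above the ground and was not called between the flight tubes (limma, adjusted p = 0.792).

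Of 8 members with roles in transcription, RNA or translation, 4 fell between the flight tubes, beside 1.25% of all probe sets. ZPR1-type zinc finger gene AT5G37340 read 5.25, 5.28 and 4.27 on the ground, 6.86, 7.06 and 7.07 in first-actuated roots and 6.72 on all 3 last-actuated arrays. Its difference between the flight tubes was -0.27 (adjusted p = 0.693). AAR2-family gene AT1G66510, whose relatives assemble the spliceosome, read 5.42 on all 3 last-actuated arrays against 5.90, 6.21 and 5.95 in first-actuated roots. Values equal in every deposited digit on the last-actuated arrays also occurred in AT1G67360, so the spread within that tube is not informative for these 3 members. Translation factor gene AT5G12110, for a subunit of elongation factor eEF1B, fell by 0.60 (adjusted p = 0.0472) from a first-actuated level 1.44 above the ground. SUI1-type initiation factor gene AT5G54940 was 1.36 and 0.85 above the ground. AT4G02550, with a Myb/SANT-like domain, fell by 1.12 (adjusted p = 0.00464), and AT2G34040, related to the animal apoptosis inhibitor API5, by 0.89 (adjusted p = 0.0486). The calls of AT5G12110 and AT2G34040 were lost in some alternative fits, among them those without any 1 flight array.

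Of 8 members that encode metabolic enzymes, limma called 5 lower in last-actuated than in first-actuated roots, beside 1.25% of all probe sets. Families were assigned with the members in view, so their counts were not compared by a test. AT5G42150, of the glutathione S-transferase family, read 4.86, 4.74 and 5.08 on the ground, 6.95, 7.15 and 7.17 in first-actuated and 5.85, 5.90 and 5.89 in last-actuated roots. It fell by 1.21 (SE 0.11, limma, adjusted p = 0.00161). GALT6, which adds galactose to arabinogalactan proteins, read 3.36, 4.00 and 3.98, then 5.84, 5.91 and 5.69, then 4.60, 4.58 and 4.62, and fell by 1.22 (adjusted p = 0.00687). BCAT6 fell by 1.16 (adjusted p = 0.00424), and AT1G16040, a PIG-F homologue of the pathway for glycosylphosphatidylinositol anchors, by 1.01 (adjusted p = 0.00969). AT5G61510, of the zinc-type alcohol dehydrogenase family, fell by 0.87 (adjusted p = 0.0210). Its call was lost without any 1 first-actuated array, without last-actuated replicate 1 or 3 and with the flight groups alone, and that of AT1G16040 without first-actuated replicate 2 or 3. The inositol polyphosphate phosphatase-like AT2G37440, the oxygenase AT3G61400 and the thioredoxin-fold AT1G21350 were 1.03 to 1.59 above the ground in first-actuated roots and 0.81 to 1.12 in last-actuated roots.

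Membrane, lipid droplet and cell wall proteins made up 6 members together with the kinases. LDAP1 (AT1G67360), a coat protein of lipid droplets, read 4.99, 5.04 and 5.29 on the ground, 6.60, 6.69 and 6.72 in first-actuated roots and 6.04 on all 3 last-actuated arrays, a fall of 0.63 (adjusted p = 0.0166), lost without any 1 flight array. AT4G33660, of the cysteine-rich transmembrane module family, read 6.36, 6.71 and 6.88, then 8.50, 8.65 and 8.53, then 8.33, 8.03 and 7.85. AT1G26240, an extensin-like cell wall protein gene, had the most positive difference of any member, 0.25 (95% interval -0.30 to 0.80, adjusted p = 0.747), with overlapping flight tubes at 4.1 to 4.78 and 4.26 to 4.94. AT1G26240, AT1G30070, AT1G31335, AT2G30480, AT4G23493 and AT5G58787 were the 6 members with a higher mean in last-actuated roots, by 0.030 to 0.25, and their adjusted p ran from 0.592 to 0.972. AT1G30070, annotated with an SGS domain, read 8.26, 8.21 and 8.23 on the ground, 9.47, 9.56 and 9.56 in first-actuated and 9.49, 9.83 and 9.76 in last-actuated roots.

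For the other 26 members no role is given here. Of these 8 fell between the flight tubes, beside 1.25% of all probe sets. The median differences of the 26 from the ground were 1.47 and 1.01. AT5G66090 read 6.37, 6.12 and 6.39 on the ground, 8.18, 8.50 and 8.34 in first-actuated and 7.32, 7.19 and 7.19 in last-actuated roots, a fall of 1.11 (adjusted p = 0.00299). AT1G05575 fell by 1.40 (adjusted p = 0.0110), a call lost without any 1 first-actuated array and without last-actuated replicate 1. AT2G30480 read 5.18, 5.77 and 5.62, then 6.87, 7.14 and 6.91, then 7.07, 7.11 and 6.90, with overlapping flight tubes.

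**Figure D4:**
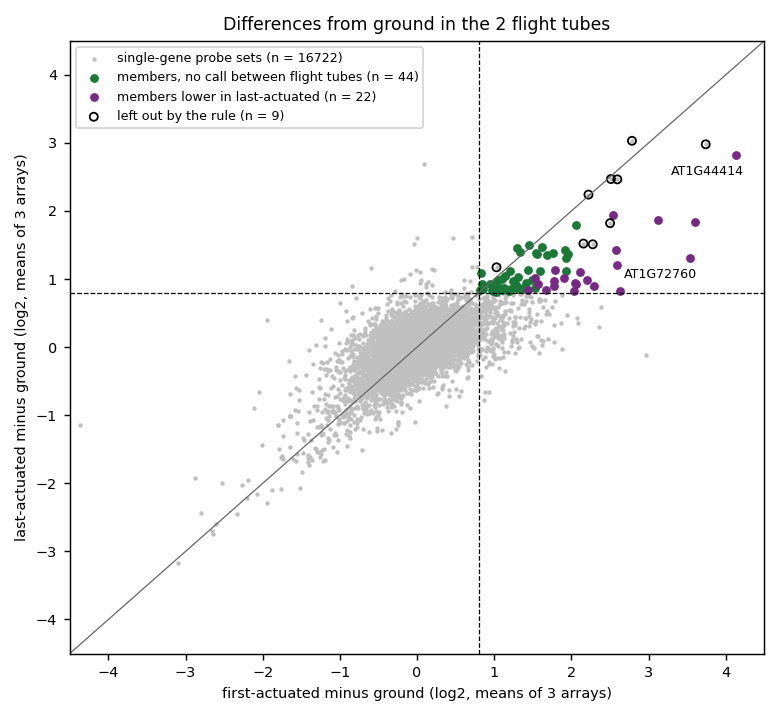
First-actuated minus ground (horizontal axis) against last-actuated minus ground (vertical axis), both as log2 differences of means of 3 arrays, which share the ground arrays. Grey points are the 16722 probe sets, green and purple points the 66 members without and with a call between the flight tubes, open circles the 9 genes set aside, and dashed lines the threshold of 0.8. Purple points lie below the diagonal, with AT1G44414 and AT1G72760 named.

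Members that fell between the flight tubes tended to stand farther from the ground in first-actuated roots. Their median first-actuated difference from the ground was 2.08, against 1.29 for the 44 members not called, while the last-actuated medians were 1.00 and 0.98. Of the 15 members at least 2 above the ground in first-actuated roots, 14 were called, and AT5G37340 was the exception. Over all probe sets 1.25% fell. The share among all probe sets at least 2 above the ground in first-actuated roots is not given here. Both quantities contain the first-actuated mean, so their relation is given as a description.

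Ground values spread more than flight values in these genes. The median SD of a member was 0.30 on the ground, 0.11 in first-actuated and 0.13 in last-actuated roots, against 0.16, 0.12 and 0.15 over all probe sets. In 52 members the ground SD was larger than both flight SDs, against 41.6% of all probe sets. Ground replicate 2 was the highest of the 3 ground arrays in 41 of 66 members, against 33.4% of all probe sets. Measured against ground replicates 1, 2 and 3 singly, the members' median difference was 1.67, 1.32 and 1.54 in first-actuated roots and 1.25, 0.76 and 1.09 in last-actuated roots. Without ground replicate 2 the rule found 114 genes, among them all 66 members. Without ground replicate 1 it found 51, of which 44 are members, and without ground replicate 3 it found 61, of which 52 are members.

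The threshold passed through a continuous range of values. Just inside it lay AT5G58787 (0.81 and 0.84 above the ground in first-actuated and last-actuated roots), AT1G21350 (1.03 and 0.81) and GALT6 (2.04 and 0.82). Just outside lay AT4G25225 (1.41 and 0.80), AT5G55640 (1.15 and 0.79) and AT5G28520 (0.79 and 0.81). In 23 members the smaller difference was within 0.1 of the threshold, and in 60 the smaller one was that of the last-actuated tube. The differences alone were also met by AT4G31351 and the DnaJ-domain gene AT1G71000, whose flight and ground arrays overlapped.

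The members lay on all 5 nuclear chromosomes, with 20, 9, 5, 10 and 21 of the 65 matched to RefSeq by gene identifier on chromosomes 1 to 5. By the order of protein-coding genes in RefSeq (TAIR10.1), 1 pair of members stood side by side, AT4G33660 and AT4G33666, with first-actuated levels 1.91 and 1.53 above the ground and last-actuated levels 1.42 and 1.01 above it. AT4G33666 fell by 0.52 between the flight tubes (limma, adjusted p = 0.0480), a call lost in 12 of the 20 alternative fits, and AT4G33660 differed by -0.49 (adjusted p = 0.177). The subtilase gene AT4G21323 lies beside HSA32, which was 2.16 and 1.52 above the ground. AT1G16040 lies beside Hsp70b, which was not analysed here. Of 132 neighbouring positions 80 held a measured gene, and the 77 neighbours that neither met the rule nor were set aside had median differences of 0.047 and 0.036 from the ground.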

How the data were processed

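Root RNA from 9 replicates, 3 from the 1 tube of each group, was hybridised to AraGene 1.0 ST arrays, 1 array each. The deposited values are log2 expression levels, made by the authors with RMA and the oligo package in R 4.0.0 on TAIR10, per the submitters' processing notes. RMA corrects the background, equalises the distributions of the arrays and summarises each probe set, so a shift common to most genes is removed, and no detection calls were available. Array medians lay between 2.09 and 2.15, and the number of arrays limits the precision. All 9 deposited columns were used, and 0 others were present.

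Of 38408 probe sets, 16722 carried 1 gene in the platform annotation, 759 carried several and 20927 were not listed there and are unnamed here. Of the 16722, 16574 were matched to RefSeq (TAIR10.1), which supplied chromosome and gene order. Samples were grouped by their titles.

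Differences between last-actuated and first-actuated roots were fitted with limma 3.58.1 in R 4.3.3 on all 9 arrays, with moderated variances, Benjamini-Hochberg adjustment over the 16722 probe sets and a threshold of 0.05. Every adjusted p in the text is from this limma fit or a named alternative of it. The fit was tested on simulated data. Alternatives changed the normalization, filter, variance moderation, array weights, probe sets tested, threshold or arrays used, or added the replicate number as a block.

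Named in full are the 8 members with the largest mean difference from the ground, the 8 calls with the smallest p, up to 3 members per gene list, those nearest the threshold, and members beside each other or sharing a family. Other genes named were chosen after their values were seen. The members and gene lists were chosen with earlier results of these data known. Protein families were assigned by hand after the members were known, and gene roles are background knowledge rather than content of the files.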

Additional observations from a re-analysis of the deposited data

Results flagged for a closer look

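Probe sets that could not be tied to 1 gene did not enter the tests, and some of them met the same conditions as the members. Of the 20927 probe sets not listed in the platform annotation, 103 were at least 0.8 above the ground in both flight tubes with all flight arrays above all ground arrays, which is 0.492% of them. Their median differences from the ground were 1.42 in first-actuated and 1.07 in last-actuated roots, and 83 of them had a lower mean in last-actuated than in first-actuated roots. Of the 759 probe sets that name several genes, 1 met the conditions, or 0.132%. The genes behind these probe sets were not identified here.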

How the results depend on the processing

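Counts of calls between the flight tubes moved with the arrays used and with the threshold. Leaving out 1 array at a time, 9 to 23 members fell and 0 rose, against 22 and 0 with all arrays, and over all probe sets 53 to 297 fell and 42 to 197 rose, against 209 and 162. At an adjusted p under 0.01, 12 members fell, and 60 probe sets fell and 34 rose in all. With array weights 339 fell and 260 rose over all probe sets, and with unnamed probe sets included 349 fell and 247 rose, where more probe sets were tested by construction. The cause of the change with array weights was not tested. In every other setting run, 17 to 24 members fell and 0 rose. The rule found 30 members at a threshold of 1.0 in place of 0.8, 91 at 0.7, and 51 to 114 when 1 array was left out. Among named members 361 alternative values kept their direction and side of the threshold, 37 kept their direction and lost the call, and 2 changed sign, both in members with no call. AT2G29500 differed by 0.066 between the flight tubes without first-actuated replicate 2, within a range of -0.17 to 0.066 when 1 array was left out. AT5G58787 differed by -0.026 without last-actuated replicate 3, within a range of -0.026 to 0.070.

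Deviations of same-numbered first-actuated and last-actuated arrays correlated at 0.0065, 0.017 and 0.030, so the replicate numbers were not treated as pairs. With the replicate number as a block 19 members fell, and over all probe sets 172 fell and 126 rose. The planned search for promoter motifs, with its alternatives, was not run, because no promoter sequences were used here.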
